A study of Mus musculus with 7 samples.

Results

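The genes described here encode the proteins that form a blood clot, hold clotting in check and dissolve the clot again. They are 33 genes picked by symbol from the 22564 genes of an mRNA expression table of mouse liver, and each symbol stood in a single row of the table. The set covers the fibrinogen chains and their relative Fgl1, the vitamin K-dependent proteases that promote clotting, the contact pathway, and the cofactors and carriers. It also covers the crosslinking enzyme, the anticoagulants, the fibrinolytic enzymes with their receptor, and the inhibitors of fibrinolysis. Liver RNA was sequenced from C57bl/6 mice that received parathyroid hormone (PTH, 4 libraries) or phosphate-buffered saline (PBS, 3 libraries). PTH is a peptide hormone that acts through a receptor coupled to cyclic AMP, and the series asked how PTH receptor signalling bears on liver fibrosis. In the sample titles the groups are C+P and C. The meaning of C is not given in the labels, so whether all mice shared another treatment or an injury cannot be told. Dose, duration, age and sex are likewise not given in the labels, nor whether libraries come from different animals, so a p-value here reflects the spread among these libraries, which may be technical. Libraries are named by group and number, such as PTH 2.

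Most plasma clotting factors are made by hepatocytes and secreted into blood. Vessel injury exposes tissue factor, which with factor VII activates factor X. Factor X with its cofactor factor V then turns prothrombin into thrombin, and thrombin cuts fibrinogen into fibrin. Factors VIII, IX, XI and XII amplify or start the cascade from the surface side. Antithrombin, the protein C system, protein Z and tissue factor pathway inhibitor limit it, and plasmin, made from plasminogen, breaks the fibrin down. Several members come from other cells: factor VIII, von Willebrand factor and thrombomodulin are products of endothelial cells, and the factor XIII A chain comes from cells of the blood and macrophage lineages.

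Levels are given in FPKM (fragments per kilobase of transcript, scaled to the mapped fragments of the library), so that genes of different length can be set side by side. The libraries held between 1621721 and 3281507 estimated reads in the PTH group and between 1200679 and 2556679 in the PBS group, counted over the listed genes. Changes are PTH minus PBS on the scale of log2(FPKM + 0.5), tested with limma over the 11861 genes that reached 0.5 FPKM in at least 3 libraries, and a gene is said to have risen or fallen where the two-sided Benjamini-Hochberg adjusted p was at most 0.05. On the deposited scale the tested genes had a median change of 0.55, and the fit called 2709 genes higher and 281 lower, so that 90.6% of its calls were higher. After every library was scaled to a common median, it called 351 higher and 563 lower, or 38.4% higher, with a median change of 0.01. Members are therefore given on both scales. Hepatocyte markers were present, as the liver label requires: 14 of 15 listed genes were found and none was below 0.5 FPKM in all libraries, and their summed level ran from 23386 to 39101 FPKM in PTH livers and from 13126 to 33585 FPKM in PBS livers.

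All 33 members passed the filter on low values. In PTH livers 11 of them fell (33.3%) and 1 rose (3.03%), while 21 did not pass the test. Over all tested genes 2.37% fell and 22.8% rose. The 11 were Fga, Fgb, Fgg, Fgl1, F7, F10, F11, Proz, Plg, Serpinf2 and Cpb2, and the member that rose was Thbd. The FPKM values of the groups did not overlap for 13 members that were lower in PTH (39.4%, against 3.2% of all tested genes) and for 4 that were higher (12.1%, against 32.9%). The median log2 change of the members was -0.56, and 21 of 33 changes were below 0 (63.6%), against 2583 of 11861 over all tested genes (21.8%). On the common-median scale 19 members were lower, among them all 11, and none was higher by limma (0 higher and 20 lower at an unadjusted p of at most 0.05), against 4.75% lower and 2.96% higher over all tested genes. In bulk liver RNA, fewer cells of a type and less RNA per cell cannot be told apart, and this holds for every level below. The counts depend on single libraries: without PTH 2 only F7, Fga and Fgg were called lower (1.0% of all tested genes were), without PBS 1 and without PBS 2 there were 6 in each case (1.21% and 1.34%), and Thbd was no longer called without PBS 1, PBS 2, PBS 3, PTH 2 or PTH 3.

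A larger share of the abundant members fell than of the scarce ones, and the same held over all tested genes. Of the 12 members with a mean of at least 100 FPKM over all libraries, 7 fell (58.3%), against 43 of 306 tested genes at that level (14.1%). Their median log2 change was -1.06, against 0.48 for all tested genes at that level. Between 10 and 100 FPKM, 3 of 10 members fell (30%), against 3.18% of all tested genes. Below 10 FPKM, 1 of 11 fell and 1 rose (9.09% each), against 1.56% that fell and 18.0% that rose of all tested genes of that level. The median log2 change of these 11 was 0.55, against 0.52 for all tested genes of that level.

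**Figure D1:**
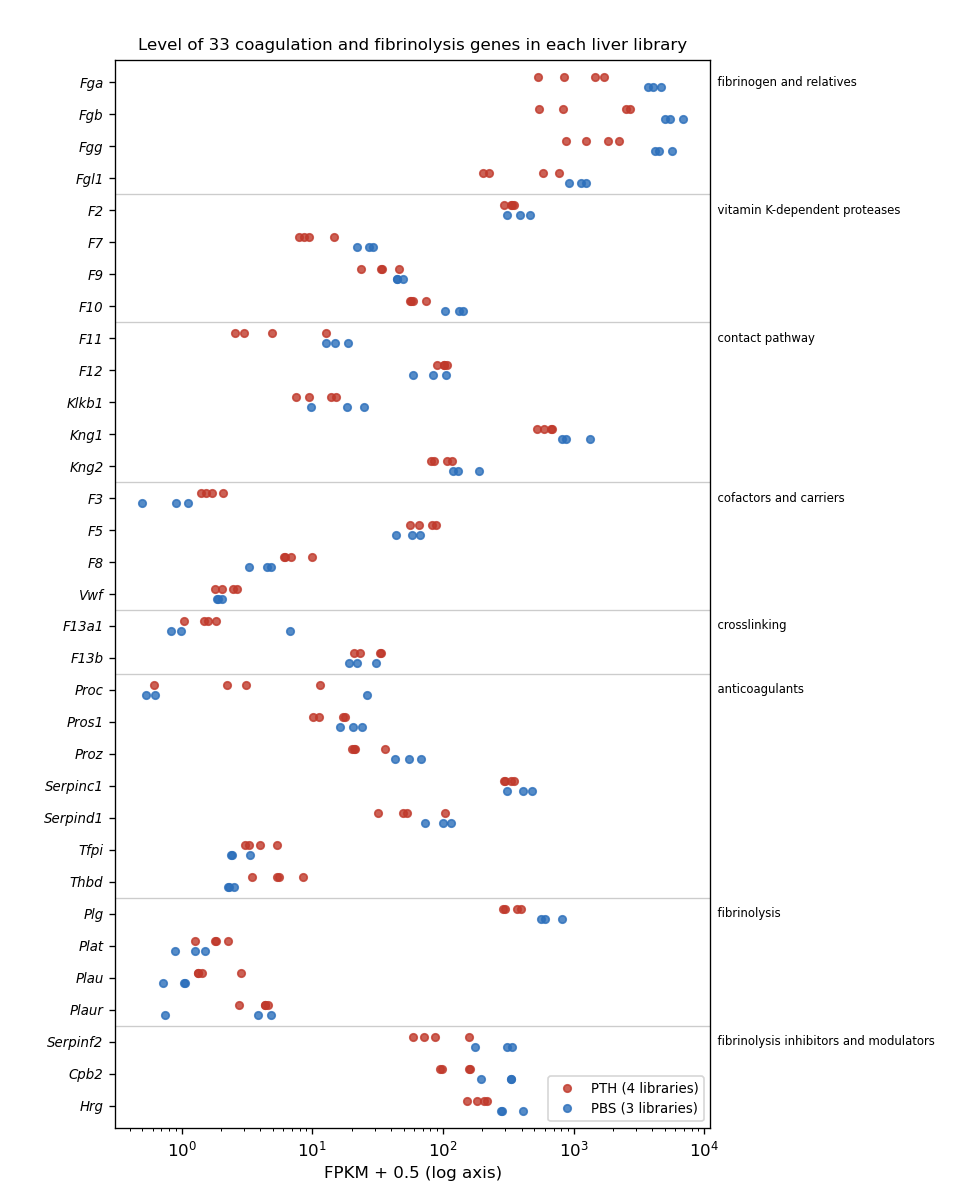
Level of each of the 33 genes in each library, as FPKM + 0.5 on a log axis, with PTH libraries in red above PBS libraries in blue and genes grouped by role. The genes span from below 1 FPKM to 6893 FPKM, and the red points of the 3 fibrinogen chains lie left of all blue points.

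Together the 33 genes took 2.62, 1.34, 3.13 and 2.05% of the summed FPKM in PTH 1 to 4, against 6.79, 6.11 and 6.75% in PBS 1 to 3. Every PTH library was below every PBS library, and the mean shares were 2.29% ± 0.77 (SD, n = 4) in PTH livers and 6.55% ± 0.384 (SD, n = 3) in PBS livers. The 3 fibrinogen chains alone held 1.65, 0.585, 2.05 and 1.09% in PTH livers and 4.98, 4.55 and 5.02% in PBS livers. The other 30 genes held 0.969, 0.757, 1.08 and 0.962% in PTH livers and 1.81, 1.56 and 1.73% in PBS livers, so their share was lower as well.

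Fibrinogen is a hexamer built from pairs of α, β and γ chains, encoded by Fga, Fgb and Fgg. The genes lie side by side on chromosome 3 of GRCm38 (GENCODE M21 coordinates), with Fgg at chr3:83007724-83015049 and Fga at chr3:83026076-83033627 on the plus strand, and Fgb at chr3:83040141-83049863 on the minus strand. Fgg and Fga are 11026 bases apart, Fga and Fgb 6513, and no other gene of the table lies between them. The bases before each start are shown because the 3 genes fell together and, in mammals, fibrinogen is a classical target of interleukin 6 signalling. They are RefSeq sequences of GRCm38.p6, 5′ to 3′ on the strand of the gene, 250 bases before the RefSeq start for Fgg and Fgb. RefSeq places the Fga start downstream of the M21 start given above, so the Fga sequence stops before the M21 start and has 173 bases. Capitals mark matches to the motifs searched.
Fgg: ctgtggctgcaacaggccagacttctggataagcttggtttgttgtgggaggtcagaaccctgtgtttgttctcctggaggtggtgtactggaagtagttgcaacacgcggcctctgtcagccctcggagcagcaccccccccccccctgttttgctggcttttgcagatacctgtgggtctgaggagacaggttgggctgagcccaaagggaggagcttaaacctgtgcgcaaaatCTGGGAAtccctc
Fga: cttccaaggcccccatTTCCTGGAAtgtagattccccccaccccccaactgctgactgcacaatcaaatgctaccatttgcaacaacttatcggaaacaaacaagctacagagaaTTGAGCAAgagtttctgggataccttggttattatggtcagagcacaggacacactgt
Fgb: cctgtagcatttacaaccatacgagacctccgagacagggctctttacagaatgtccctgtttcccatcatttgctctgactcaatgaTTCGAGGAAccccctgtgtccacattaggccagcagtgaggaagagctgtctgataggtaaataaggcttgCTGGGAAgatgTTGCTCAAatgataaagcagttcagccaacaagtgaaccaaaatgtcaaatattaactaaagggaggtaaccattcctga
The Fgg window is chr3:83007474-83007723 (plus strand), the Fga window chr3:83025903-83026075 (plus strand) and the Fgb window chr3:83049864-83050113 (minus strand). The capitals in Fgg are CTGGGAA, the letters of the interleukin 6 response element, with the first base 13 bases before the start. Counted from the RefSeq starts, those in Fga are a STAT match at -234 and a C/EBP match at -135. In Fgb they are a STAT match at -162, CTGGGAA at -91 and a C/EBP match at -80.

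In all, 8 motifs were searched on both strands in windows of 300 bases, from 250 before to 50 after the start. Of the 33 genes 25 had such a window, 27 windows in all, beside 32851 windows of the whole table. TTCNNNGAA (STAT) was in 14.8% of the members' windows and 8.3% of all, and CTGGGAA in 18.5% and 11.1%. Besides Fga and Fgb, the STAT letters lay in F9 and Pros1, and besides Fgb and Fgg, CTGGGAA lay in F9, Kng2 and Tfpi. On the deposited scale F9, Pros1, Kng2 and Tfpi were not called. TTGCNNAA (C/EBP) was in 37.0% of the members' windows, in 10 genes, against 10.8% of all windows. Of the 10, Fga, Fgb, F11 and Cpb2 fell, while F9, Hrg, Klkb1, Kng2, Plaur and Serpinc1 were not called on the deposited scale. TGACGTCA, the cyclic AMP response element (CRE), was in 3.7% and 1.79%, and its shorter core TGACG, which lies within it, in 22.2% and 20.8%. TATAAA was in 14.8% and 13.6%. The palindromic HNF1 motif and CAAAGTCCA (HNF4) were in no member window, and in 0.00913% and 0.475% of all. In the F9 window the STAT match and CTGGGAA, read on the other strand, overlap. A match describes letters only and says nothing of binding in these livers.

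Fga had 1462, 533, 1689 and 837 FPKM in PTH 1 to 4, against 4619.6, 4042 and 3688 FPKM in PBS 1 to 3. It fell by 2.00 on the log2 scale (SE 0.39, 95% interval -2.85 to -1.15, limma adjusted p = 0.0077), with means of 1130.2 ± 537 and 4116 ± 470.3 FPKM (SD, n = 4 PTH and 3 PBS), a level 3.64-fold lower in PTH. The groups were far apart, and the PTH libraries split into a higher pair, PTH 1 and PTH 3, and a lower pair, PTH 2 and PTH 4. Fgb had 2692, 543, 2530.4 and 820.2 FPKM in PTH livers, against 6893, 4995 and 5495 FPKM in PBS livers. It fell by 2.12 (SE 0.52, 95% interval -3.27 to -0.98, limma adjusted p = 0.0171), again without overlap and with the same libraries high and low within PTH. Fgg had 1834, 873, 2201 and 1242 FPKM in PTH livers, against 5682, 4503 and 4171 FPKM in PBS livers, and fell by 1.71 (SE 0.35, 95% interval -2.47 to -0.95, limma adjusted p = 0.00882). By mean level Fgb, Fgg and Fga ranked 29, 31 and 34 of 22564 genes in PTH livers and 9, 11 and 12 in PBS livers. With common-median scaling the changes were -2.63 for Fga, -2.75 for Fgb and -2.34 for Fgg. Fga and Fgg were called in every setting tried, while Fgb missed the threshold without PTH 2 (adjusted p = 0.0503), after quantile normalization (adjusted p = 0.0956), and on the common-median scale without PBS 1, PBS 3 or PTH 4.

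Within a library, the Fga to Fgg ratio was 0.797, 0.611, 0.767 and 0.674 in PTH livers and 0.813, 0.898 and 0.884 in PBS livers, lower in each PTH library and without overlap. The Fga to Fgb and Fgg to Fgb ratios overlapped between the groups. A ratio of this kind does not depend on how libraries are scaled. The pairs of genes for all ratios given here were picked with the levels known, and none was tested.

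Fgl1 (chr8:41191434-41215156, minus strand) encodes a fibrinogen-like protein that hepatocytes secrete and that does not form clots. It had 578, 203, 766 and 225 FPKM in PTH livers, against 1232, 917 and 1137 FPKM in PBS livers. It fell by 1.53 (SE 0.45, 95% interval -2.51 to -0.54, limma adjusted p = 0.0314), with PTH 1 and PTH 3 again above PTH 2 and PTH 4 and every PTH library below the PBS libraries. The call was lost when PBS 1, PBS 2, PBS 3, PTH 2 or PTH 4 was left out, with adjusted p between 0.0598 and 0.0955. It was also lost after quantile normalization (adjusted p = 0.0679), with array weights (adjusted p = 0.0663) and with no filter (adjusted p = 0.0556). The common-median change was -2.15 (adjusted p = 0.0237).

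**Figure D2:**
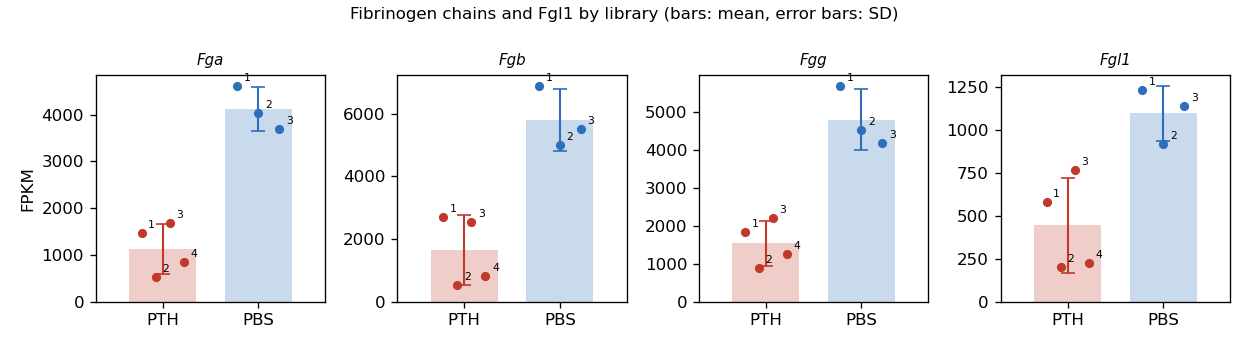
FPKM of Fga, Fgb, Fgg and Fgl1 in each library, with PTH left of PBS, points numbered by library, bars at the mean and error bars of 1 SD. PTH 2 and PTH 4 are the lowest libraries for all 4 genes, and the highest PTH value stays below the lowest PBS value in each panel.

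Of the 4 vitamin K-dependent proteases that promote clotting F7 and F10 fell, while F2 (prothrombin) and F9 did not pass the test. F7, which starts the tissue factor pathway, had 14.0, 8.92, 8.21 and 7.40 FPKM in PTH livers, against 28.7, 26.8 and 21.6 FPKM in PBS livers. It fell by 1.40 (SE 0.28, 95% interval -2.02 to -0.78, limma adjusted p = 0.00882), was 2.66-fold lower by the means, and was called in every setting tried. F10, the protease that activates prothrombin, had 73.7, 56.9, 55.6 and 58.0 FPKM in PTH livers, against 143, 133 and 103 FPKM in PBS livers. It fell by 1.04 (SE 0.25, 95% interval -1.59 to -0.49, limma adjusted p = 0.016) without overlap of the groups, and missed the threshold without PBS 2 (adjusted p = 0.0516) and without PTH 2 (adjusted p = 0.0539).

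F2 encodes prothrombin and had 330.1, 336, 350.3 and 292 FPKM in PTH livers, against 465, 387 and 307 FPKM in PBS livers. The groups overlapped and the log2 change was -0.22 (SE 0.26, 95% interval -0.78 to 0.34, limma adjusted p = 0.533). F9, the protease missing in haemophilia B, had 45.9, 33.2, 33.7 and 23.1 FPKM in PTH livers and 48.6, 44.0 and 43.9 FPKM in PBS livers, with a log2 change of -0.46 (limma adjusted p = 0.228). Scaled to a common median, both were called lower in PTH, F2 by a log2 change of -0.85 (adjusted p = 0.0279) and F9 by -1.08 (adjusted p = 0.0224). After quantile normalization F9 was called lower, at -0.90 (adjusted p = 0.0326), and F2 was not (adjusted p = 0.442).

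Set against F2 in the same library, F7 stood at 0.0425, 0.0266, 0.0234 and 0.0253 in PTH livers and at 0.0617, 0.0693 and 0.0702 in PBS livers. The F10 to F2 ratio was 0.223, 0.169, 0.159 and 0.199 in PTH livers and 0.307, 0.344 and 0.335 in PBS livers. Both ratios were lower in every PTH library than in any PBS library. The ratio of F7 to F10 was 0.190, 0.157, 0.148 and 0.127 in PTH livers and 0.201, 0.202 and 0.210 in PBS livers, also without overlap, so of the 2 neighbours F7 was the lower relative to PBS.

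F7, F10 and Proz follow one another on the plus strand of chromosome 8, at chr8:13026034-13035809, chr8:13037308-13056676 and chr8:13060914-13076026 of GRCm38. F7 and F10 are 1498 bases apart, and F10 and Proz 4237. Proz encodes protein Z, a vitamin K-dependent protein without protease activity that serves as cofactor for the inhibition of factor Xa. It had 35.8, 19.6, 20.3 and 20.5 FPKM in PTH livers, against 67.4, 54.7 and 42.3 FPKM in PBS livers. It fell by 1.19 (SE 0.30, 95% interval -1.84 to -0.54, limma adjusted p = 0.0175), and PTH 1 stood well above the other PTH libraries but below all PBS libraries. The call was lost without PBS 1 (adjusted p = 0.0561), PBS 2 (adjusted p = 0.0518) or PTH 2 (adjusted p = 0.06). The common-median changes of F7, F10 and Proz were -2.01, -1.66 and -1.81. The RefSeq promoter windows of these 3 genes held none of the 8 motifs.

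**Figure D3:**
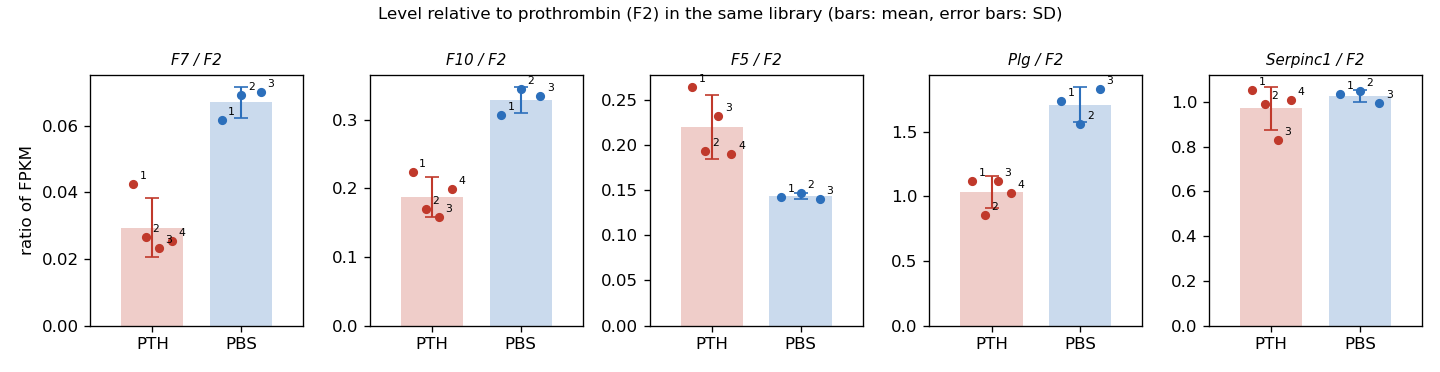
Level of F7, F10, F5, Plg and Serpinc1 divided by that of F2 in the same library, with PTH left of PBS, points numbered by library, bars at the mean and error bars of 1 SD. F7, F10 and Plg are lower relative to F2 in every PTH library, F5 is higher, and Serpinc1 overlaps near 1.

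In the contact pathway, which starts clotting on negatively charged surfaces and releases bradykinin, 1 of 5 genes fell. F11 (chr8:45241174-45262031, minus strand), the protease that activates factor IX, had 12.2, 2.48, 4.43 and 2.06 FPKM in PTH livers, against 14.5, 18.3 and 12.2 FPKM in PBS livers. It fell by 1.71 (SE 0.48, 95% interval -2.77 to -0.65, limma adjusted p = 0.0276), but PTH 1 lay just above PBS 3 and far above the other PTH libraries. The call held with PTH 1 left out and was lost with any other library left out, with adjusted p between 0.0553 and 0.086. It was also lost with no filter (adjusted p = 0.0508) and with the replicate number as a block (adjusted p = 0.065). Its common-median change was -2.29 (adjusted p = 0.0227). F12, which starts the pathway, had 101, 102, 107 and 89.9 FPKM in PTH livers and 105, 83.1 and 58.6 FPKM in PBS livers. Its log2 change was 0.32 (SE 0.27, 95% interval -0.27 to 0.90, limma adjusted p = 0.385) on the deposited scale and -0.31 on the common-median scale. The F12 to F11 ratio was 8.29, 40.9, 24.1 and 43.7 in PTH livers and 7.22, 4.55 and 4.81 in PBS livers, so that every PTH library was above every PBS library, with PTH 1 close to PBS 1.

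Kng1 and Kng2 encode kininogens, the precursors of bradykinin and cofactors of the contact system. Kng1 had 683, 519.7, 597 and 674 FPKM in PTH livers, against 1339, 812 and 876 FPKM in PBS livers, with a log2 change of -0.68 (SE 0.28, limma adjusted p = 0.0912). Kng2 had 117, 79.9, 107 and 84.8 FPKM in PTH livers, against 189, 119 and 129.6 FPKM in PBS livers, with a log2 change of -0.57 (limma adjusted p = 0.138). The groups did not overlap for either gene. Scaled to a common median, the changes were -1.31 (adjusted p = 0.0157) for Kng1 and -1.20 (adjusted p = 0.0174) for Kng2. On the deposited counts, a scaled signal (scaled counts below), Kng1 was called lower, at -0.83 (limma adjusted p = 0.033), and Kng2 was not (adjusted p = 0.102). After quantile normalization Kng2 was called lower, at -0.97 (adjusted p = 0.0279), and Kng1 was not (adjusted p = 0.102). Their transcripts share 557 stretches of 50 bases, 17.18% of those of Kng1 and 19.39% of those of Kng2, so how reads were divided between the 2 genes is uncertain. Klkb1 (plasma prekallikrein) ran from 6.94 to 14.7 FPKM in PTH livers and from 9.30 to 24.5 FPKM in PBS livers and did not pass the test on the deposited scale (limma adjusted p = 0.252) or the common-median scale (-1.19, adjusted p = 0.0578), and its locus in the table is shared with another gene.

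None of the 4 cofactors and carriers passed the test, and their changes were all above 0 on the deposited scale, with a median of 0.58 beside 0.55 for all tested genes. F5, cofactor of factor X, had 87.4, 64.8, 81.2 and 55.5 FPKM in PTH livers, against 66.2, 56.9 and 43.2 FPKM in PBS livers. Its log2 change was 0.38 (SE 0.27, 95% interval -0.22 to 0.97, limma adjusted p = 0.311), and -0.25 on the common-median scale. Relative to F2 in the same library, F5 stood at 0.265, 0.193, 0.232 and 0.190 in PTH livers and at 0.142, 0.147 and 0.141 in PBS livers, so every PTH library was above every PBS library. The table gives F5 and Selp a single locus, so its value may hold reads of both.

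F8, cofactor of factor IX and the gene of haemophilia A, had 5.61, 9.36, 6.32 and 5.63 FPKM in PTH livers, against 4.002, 4.29 and 2.76 FPKM in PBS livers. All PTH libraries were above all PBS libraries, with a log2 change of 0.78 (SE 0.30, 95% interval 0.11 to 1.44, limma adjusted p = 0.078) that was 0.21 on the common-median scale (adjusted p = 0.645). Its locus is also that of Fundc2. Vwf, whose product carries factor VIII in blood and binds platelets, had 2.17, 1.30, 1.96 and 1.52 FPKM in PTH livers, against 1.38, 1.52 and 1.38 FPKM in PBS livers. The groups overlapped, and the log2 change was 0.20 (SE 0.32, 95% interval -0.50 to 0.90, limma adjusted p = 0.659), or -0.28 on the common-median scale. The scaled counts of Vwf ordered the libraries otherwise, at 39.3, 63.3, 84.7 and 73.9 in PTH livers and 46.3, 30.3 and 33.9 in PBS livers. On them its log2 change was 0.72 (limma adjusted p = 0.103), so the size of its change depends on the measure. F3 (tissue factor) was near the floor, at 1.04, 1.57, 0.918 and 1.21 FPKM in PTH livers and at 0.615 and 0.404 FPKM in PBS 1 and PBS 2, and it was listed at 0 in PBS 3. These values rest on 6.8 to 14 estimated reads per PTH library and at most 4.5 per PBS library, and the log2 change of 1.07 (SE 0.38) did not pass (limma adjusted p = 0.0588), nor did its common-median change of 0.80 (adjusted p = 0.217). F3 was called higher on the scaled counts, at 1.04 (limma adjusted p = 0.0466), and when limma was run without its trend and robust options (adjusted p = 0.0431).

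The crosslinking enzyme factor XIII joins fibrin strands. F13a1, its catalytic chain, had 0.542, 0.979, 1.10 and 1.33 FPKM in PTH livers, against 6.28, 0.487 and 0.327 FPKM in PBS livers. PBS 1 alone set its direction: the log2 change was -0.28 (limma adjusted p = 0.758) with all libraries, 0.69 without PBS 1, and -0.64 with common-median scaling. F13b, the carrier chain made by the liver, ran from 20.4 to 32.8 FPKM in PTH livers and from 18.7 to 30.4 FPKM in PBS livers, with a log2 change of 0.20 (limma adjusted p = 0.617), or -0.42 with common-median scaling.

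Among the 7 anticoagulants Proz fell, as given above, and Thbd rose. Thbd (chr2:148404466-148408188, minus strand) encodes thrombomodulin, the endothelial receptor through which thrombin activates protein C. It had 2.98, 7.97, 5.06 and 4.82 FPKM in PTH livers, against 1.79, 1.77 and 2.04 FPKM in PBS livers. It rose by 1.20 (SE 0.35, 95% interval 0.45 to 1.96, limma adjusted p = 0.0287), and PTH 1 was the closest to the PBS range. The call was lost when any of the 3 PBS libraries, PTH 2 or PTH 3 was left out, with adjusted p between 0.063 and 0.086. The common-median change was 0.67 (adjusted p = 0.23).

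Serpinc1, which encodes antithrombin, the main inhibitor of thrombin and factor Xa, had 347, 333, 291 and 295 FPKM in PTH livers, against 481, 406 and 306 FPKM in PBS livers. The log2 change was -0.31 (SE 0.26, 95% interval -0.88 to 0.26, limma adjusted p = 0.39) on the deposited scale. With common-median scaling it was -0.94 and the gene was called lower (adjusted p = 0.0219). The ratio of Serpinc1 to F2 overlapped between groups, at 1.05, 0.991, 0.832 and 1.01 in PTH livers and 1.04, 1.05 and 0.997 in PBS livers. Serpind1 (heparin cofactor II) had 102, 49.0, 52.6 and 31.3 FPKM in PTH livers, against 114, 99.2 and 72.7 FPKM in PBS livers. PTH 1 lay inside the PBS range, and the log2 change of -0.80 (SE 0.37, 95% interval -1.61 to 0.01, limma adjusted p = 0.126) did not pass with all libraries. It was called lower without PTH 1 (adjusted p = 0.0218), with common-median scaling, at -1.42 (adjusted p = 0.0288), and after quantile normalization, at -1.24 (adjusted p = 0.0312). Its locus is shared with 3 other genes of the table.

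Pros1, which encodes protein S, the cofactor of activated protein C, ran from 9.56 to 17.3 FPKM in PTH livers and from 15.8 to 23.6 FPKM in PBS livers, with a log2 change of -0.56 (limma adjusted p = 0.172). It was called lower with common-median scaling, at -1.17 (adjusted p = 0.0303), and after quantile normalization, at -1.11 (adjusted p = 0.038). Tfpi, the inhibitor of the tissue factor complex, ran from 2.58 to 4.87 FPKM in PTH livers and from 1.87 to 2.81 FPKM in PBS livers, with a log2 change of 0.52 (limma adjusted p = 0.253), or -0.01 with common-median scaling. Proc, the gene of protein C, was erratic, at 1.73, 0.119, 2.63 and 10.98 FPKM in PTH livers and 0.0310, 0.130 and 25.9 FPKM in PBS livers. Its estimated reads ran from 0.2 to 90.4 and were not whole numbers, and its log2 change of 0.36 had an interval from -2.62 to 3.34 (limma adjusted p = 0.854), and was 0.02 with common-median scaling, so these values do not fix its direction.

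Of the 4 fibrinolytic genes the abundant Plg fell, and the 3 scarce genes did not pass the test. Plg (chr17:12378608-12419385) encodes plasminogen, the liver-made precursor of plasmin, and had 369, 287, 391 and 299.9 FPKM in PTH livers, against 808, 603 and 562 FPKM in PBS livers. It fell by 0.96 (SE 0.27, 95% interval -1.54 to -0.38, limma adjusted p = 0.0257), and was 1.95-fold lower by the means. Its common-median change was -1.59 (adjusted p = 0.00489). The groups did not overlap, but the call was lost without PBS 1 (adjusted p = 0.0725), PBS 2 (adjusted p = 0.0562), PTH 2 (adjusted p = 0.0795) or PTH 4 (adjusted p = 0.0505). Relative to F2, Plg was at 1.12, 0.856, 1.12 and 1.03 in PTH livers and at 1.74, 1.56 and 1.83 in PBS livers.

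The activators of plasminogen were near the floor. Plau, the urokinase gene, had 0.826, 2.37, 0.928 and 0.842 FPKM in PTH livers, against 0.216, 0.549 and 0.553 FPKM in PBS livers. All PTH libraries were above all PBS libraries, on 6 to 27 estimated reads per PTH library and 2 to 4 per PBS library, and the log2 change of 0.83 (SE 0.39, 95% interval -0.03 to 1.68) did not pass (limma adjusted p = 0.132), and was 0.46 with common-median scaling. Plat, the gene of tissue plasminogen activator, ran from 0.760 to 1.78 FPKM in PTH livers and from 0.398 to 1.02 FPKM in PBS livers, with a log2 change of 0.55 (limma adjusted p = 0.267), or 0.14 with common-median scaling. Plaur, the urokinase receptor gene, ran from 2.27 to 4.10 FPKM in PTH livers and from 0.242 to 4.34 FPKM in PBS livers, and its log2 change was 0.71 with all libraries (limma adjusted p = 0.362), -0.14 without PBS 2 and 0.23 with common-median scaling.

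Of the 3 genes that restrain fibrinolysis, 2 fell. Serpinf2 (chr11:75431732-75439591, minus strand) encodes α2-antiplasmin, the main inhibitor of plasmin, and had 156, 58.5, 86.2 and 70.7 FPKM in PTH livers, against 308, 337 and 175 FPKM in PBS livers. It fell by 1.60 (SE 0.37, 95% interval -2.41 to -0.79, limma adjusted p = 0.0136), was 2.94-fold lower by the means, and missed the threshold without PTH 2 (adjusted p = 0.0509). PTH 1 lay just below PBS 3, and the other PTH libraries were well below. Its common-median change was -2.23 (adjusted p = 0.00761). The ratio of Plg to Serpinf2 overlapped between the groups.

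Cpb2 (chr14:75242287-75283555, plus strand) encodes the thrombin-activatable fibrinolysis inhibitor, a carboxypeptidase that removes plasminogen binding sites from fibrin. It had 158, 94.4, 161 and 98.0 FPKM in PTH livers, against 332, 194 and 329 FPKM in PBS livers, and fell by 1.16 (SE 0.32, 95% interval -1.85 to -0.46, limma adjusted p = 0.0246). PTH 1 and PTH 3 were again above PTH 2 and PTH 4, and PBS 2 was the lowest PBS library. The call was lost without PBS 1 (adjusted p = 0.0691), PBS 3 (adjusted p = 0.0798) or PTH 2 (adjusted p = 0.0798). The common-median change was -1.78 (adjusted p = 0.0106). The 250 bases before its start are shown because Cpb2 was the single gene of the 25 whose window held the whole CRE, the element bound by factors that cyclic AMP activates. This 1 match is 3.7% of the members' windows, beside 1.79% of all windows, and a link to PTH was not tested. The bases shown are chr14:75242037-75242286 of GRCm38.p6, plus strand, from RefSeq, and the capitals mark TGACGTCA, with its first base at -221.
Cpb2: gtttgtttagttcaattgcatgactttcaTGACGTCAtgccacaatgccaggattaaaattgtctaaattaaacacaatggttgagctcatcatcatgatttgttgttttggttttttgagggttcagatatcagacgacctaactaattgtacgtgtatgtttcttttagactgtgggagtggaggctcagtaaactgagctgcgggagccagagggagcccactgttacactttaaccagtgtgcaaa
Hrg encodes histidine-rich glycoprotein, which binds plasminogen and heparin. It had 218, 182, 205 and 153 FPKM in PTH livers, against 409, 282 and 279 FPKM in PBS livers. Every PTH library was below every PBS library, and the log2 change of -0.76 (SE 0.27, 95% interval -1.34 to -0.17) missed the threshold (limma adjusted p = 0.0571). It passed on the common-median scale, at -1.39 (adjusted p = 0.0061), after quantile normalization, at -0.91 (adjusted p = 0.0224), and on the scaled counts, at -0.76 (adjusted p = 0.0385).

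**Figure D4:**
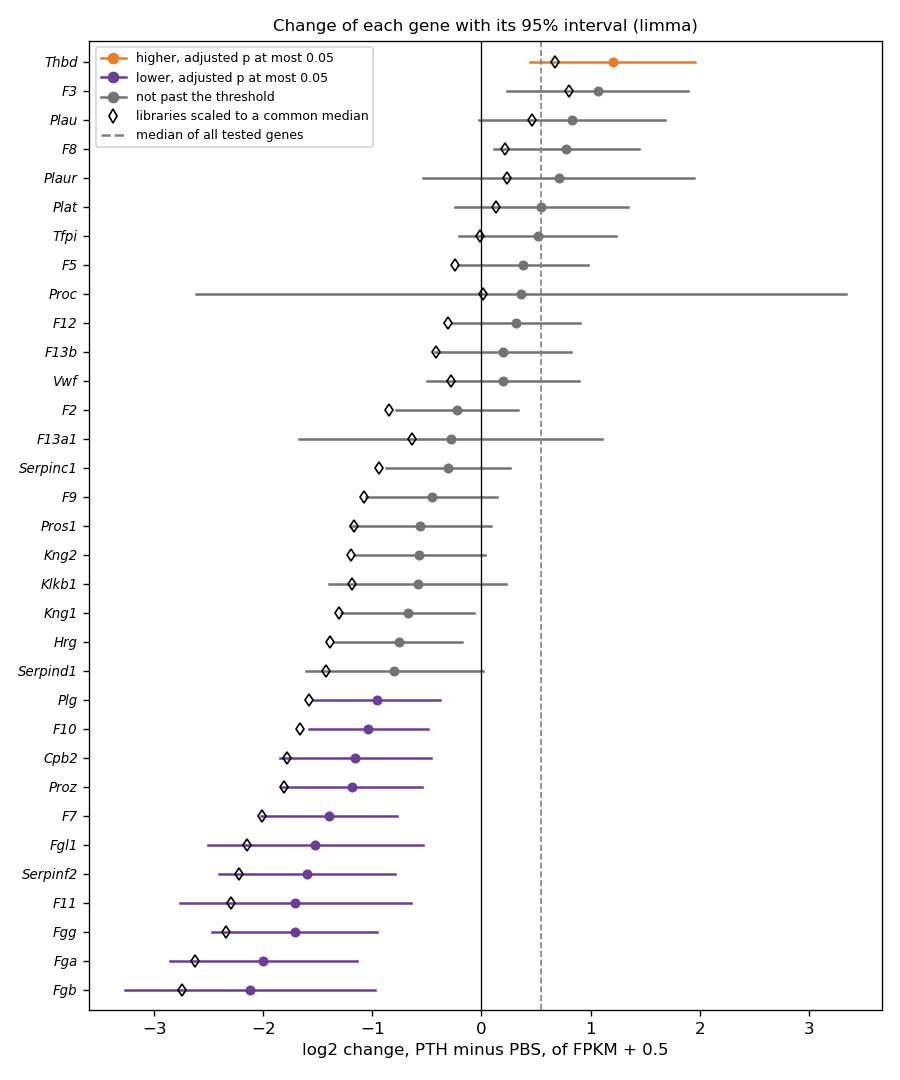
Log2 change of each gene, PTH minus PBS, with its 95% interval from limma on the deposited scale (filled points) and the change on the common-median scale (open diamonds). The dashed line is the median change of all tested genes, 0.55, and 28 of the 33 filled points lie below it.

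Thbd, F8 and Vwf are products of endothelial cells, so the markers of these cells are given beside them. Of 15 markers of liver endothelial cells, 5 rose and none fell on the deposited scale, where 22.8% of all tested genes rose, and 9 were higher without overlap, as were 32.9% of all tested genes. Their median log2 change was 0.67, beside 0.55 for all tested genes, and that of the 11 members below 10 FPKM was 0.55, beside 0.52 for all tested genes of that level. Their summed level was 183, 219, 189 and 169 FPKM in PTH livers and 155, 136 and 116 FPKM in PBS livers, so all PTH libraries were above all PBS libraries. On the common-median scale limma called none of the 15 (1 higher and 2 lower at an unadjusted p of at most 0.05), and Thbd and F8 were not called there either. The part of endothelial RNA in the levels of Thbd, F8 and the other scarce genes was not tested.

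**Figure D5:**
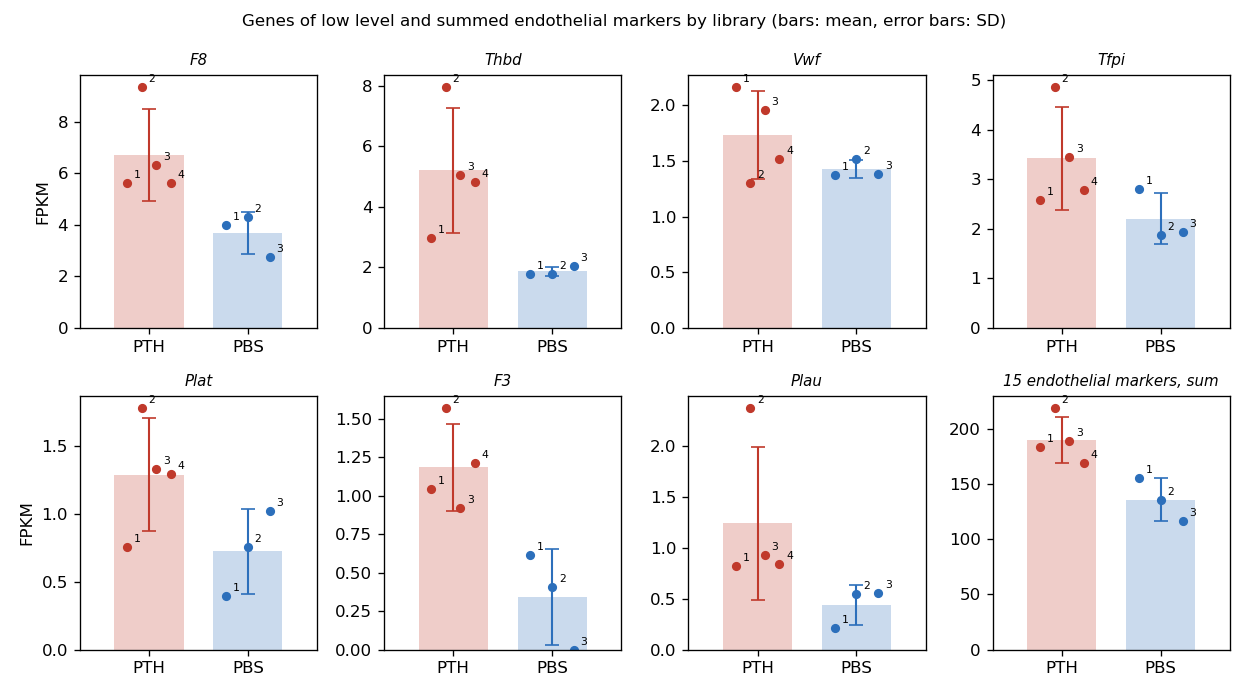
FPKM of F8, Thbd, Vwf, Tfpi, Plat, F3 and Plau and the summed FPKM of 15 endothelial markers in each library, with PTH left of PBS, points numbered by library, bars at the mean and error bars of 1 SD. PTH 2 is the highest library in every panel but that of Vwf, and the marker sum runs from 169 to 219 FPKM in PTH livers and from 116 to 155 FPKM in PBS livers.

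Some other marker lists held genes that fell, beside 2.37% that fell and 22.8% that rose over all tested genes. Of 14 tested hepatocyte markers 4 fell and none rose (5 lower and none higher with common-median scaling). Their log2 changes went both ways, from -2.73 to 0.88, with a median of -0.21, or -0.835 with common-median scaling. The groups did not overlap for 4 that were lower and 1 that was higher. Of 11 tested Kupffer cell and macrophage markers 8 fell and 1 rose (8 and 0 with common-median scaling), with sums of 122 to 206 FPKM in PTH livers and 225 to 302 FPKM in PBS livers. Of 7 tested neutrophil markers 4 fell, with sums of 4.77, 9.12, 37.1 and 4.11 FPKM in PTH livers and 803, 41.0 and 172 FPKM in PBS livers, and Ly6g was at 0 in all libraries. Among the 4, Mpo and Ngp passed the filter on low values only through the PBS libraries, where they were high. Their falls were thus nearly set by the filter. Of 15 immediate early and heat shock genes that respond to tissue handling, 6 fell, with sums of 157, 219, 268 and 191 FPKM in PTH livers and 484, 1356 and 436 FPKM in PBS livers. Of 10 platelet markers 3 were tested and none was called, with sums of 1.44 to 8.71 FPKM in PTH livers and 4.80 to 13.2 FPKM in PBS livers and Gp6 at 0 in all libraries. Of 10 stellate cell markers 1 rose and none fell, against none higher and 1 lower with common-median scaling, and their sums overlapped, at 85.2 to 134 FPKM in PTH livers and 77.8 to 108 FPKM in PBS livers. Of 6 tested bile duct markers 2 rose and none fell, against none higher and 1 lower with common-median scaling, with overlapping sums of 36.4 to 78.2 FPKM in PTH livers and 58.7 to 89.4 FPKM in PBS livers. The 2 that rose, Krt7 and Cldn7, were near the floor, with means of 0.906 and 1.39 FPKM in PTH livers. Both passed the filter on low values only through PTH libraries, where they were high, so their rises were nearly set by the filter. The part of these differences in the levels of the clotting genes was not tested.

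Beyond the 33 genes, 47 others of the pathway were listed, from the vitamin K cycle to the liver transcription factors of clotting genes, and 41 were tested. Of these 6 rose and 4 fell, beside 22.8% that rose and 2.37% that fell over all tested genes. The median log2 change of the 41 was -0.04, against 0.55 for all tested genes. Scaled to a common median, 2 were higher and 11 lower, beside 2.96% higher and 4.75% lower over all tested genes. The 6 with the smallest p are given. A2m, the broad protease inhibitor α2-macroglobulin, was listed at 0 in all 4 PTH libraries and at 89.1, 2.86 and 58.1 FPKM in PBS livers. It passed the filter on low values only through the PBS libraries, where it was high, so no p or fold is given. It is still among the 4 counted as fallen and the 11 counted as lower on the common-median scale. S100a10, which with annexin A2 forms a plasminogen receptor, had 286, 749, 412 and 506 FPKM in PTH livers, against 79.1, 46.4 and 134 FPKM in PBS livers, and rose by 2.53 (SE 0.40, limma adjusted p = 0.00386). Anxa2, its partner, had 46.2, 159.9, 71.0 and 108 FPKM in PTH livers, against 24.5, 7.98 and 37.5 FPKM in PBS livers, and rose by 2.12 (SE 0.52, limma adjusted p = 0.0164). The groups did not overlap for either, and both were highest in PTH 2, where the fibrinogen chains were lowest.

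Anxa2 missed the threshold without PBS 2 (adjusted p = 0.054), without PTH 2 (adjusted p = 0.0583) and on the common-median scale (adjusted p = 0.118). Vkorc1l1, a relative of the vitamin K epoxide reductase, had 15.1, 17.6, 10.4 and 11.2 FPKM in PTH livers, against 5.76, 3.44 and 3.72 FPKM in PBS livers, and rose by 1.55 (SE 0.30, limma adjusted p = 0.00751). Lrp1, a hepatic receptor that clears factor VIII and protease complexes, had 56.5, 36.8, 60.5 and 39.7 FPKM in PTH livers, against 136, 119.8 and 101 FPKM in PBS livers, and fell by 1.31 (SE 0.27, limma adjusted p = 0.0096). Serpina10, the protein Z-dependent inhibitor of factor Xa and thus the partner of Proz, had 109, 67.1, 117 and 67.0 FPKM in PTH livers, against 188, 203 and 199 FPKM in PBS livers. It fell by 1.17 (SE 0.29, limma adjusted p = 0.0165) and missed the threshold without PTH 2 (adjusted p = 0.0588). With Proz, both members of that inhibitor pair were lower in PTH livers than in PBS livers in every library.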

How the data were processed

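The deposited table holds 7 liver libraries, grouped by the treatment label. Per the file headers, each gene has an FPKM value and a count per library. The deposited count columns are a scaled signal: 92.4 to 94.2% of a library's values above 0.5 of its step are whole multiples of that step within 0.05, so no count test was run, and totals divided by the step gave the estimated reads. Per the submitters' processing notes, Bowtie 0.12.2 and the build mm8 were used, and the program behind the FPKM values is not given in the sources. Of the table's genes 96.8% have an identifier in GENCODE M21 and 70.6% of those have both ends within 5000 bases of it, so coordinates are those of M21 on GRCm38. The deposited length is the locus span and was not used. Read strand is not stated, so genes that share a locus are uncertain. Of the members, 4 do so. There is 1 line that names no gene.

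The 11861 genes that reached 0.5 FPKM in 3 or more libraries were fitted as log2(FPKM + 0.5) in limma 3.58.1 under R 4.3.3 (robust eBayes with a trend, two-sided, Benjamini-Hochberg adjustment over all of them, threshold 0.05, 95% intervals). Values are not rescaled, and folds on this scale understate changes of low genes. Figures used matplotlib 3.10.9 and Python 3.11.15. The fit was tested on simulated data. The members, lists, motifs and ratio pairs were chosen with earlier results of these data known. All members are named, with the 6 other pathway genes of smallest p. Alternatives were each library left out, the replicate number as a block, common-median and quantile scaling, other filters and pseudocounts, limma without trend and robust, array weights, the scaled counts (pseudocount and minimum 5), an adjusted p of 0.1 and summed rows of a symbol. After the data were seen, the common-median fit without each library and a count without shared loci were added.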

Additional observations from a re-analysis of the deposited data

Results flagged for a closer look

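Within the 4 PTH libraries, the values of 33 genes were searched for a library far from the others, and 4 genes had one. Chance gives about 1 such gene in 20. F10 was highest in PTH 1, at 73.7 FPKM, with a gap to the next library of 0.865 of the group's range. Proz, its neighbour on chromosome 8, was also highest in PTH 1, at 35.8 FPKM (0.943 of the range). Both values stayed below every PBS library. Plau was highest in PTH 2, at 2.37 FPKM (0.934 of the range), and Plaur was lowest in PTH 1, at 2.27 FPKM (0.847 of the range). Plau and Plaur rest on few estimated reads, between 6 and 27 per PTH library.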

How the results depend on the processing

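The common-median scale gave 351 genes higher and 563 lower over all tested genes, 0 members higher and 19 lower, and 2 of the other pathway genes higher and 11 lower. Quantile normalization gave 467 and 510 over all tested genes, 0 and 14 members, and 2 and 8 other pathway genes. Leaving out 1 library gave 970 to 2710 genes higher and 119 to 431 lower, 0 to 1 members higher and 3 to 12 lower, and 2 to 6 other pathway genes higher and 2 to 6 lower. With the common-median scale and 1 library left out, 9 to 20 members were lower, 0 higher. The labels do not say whether the replicate numbers pair the samples. Libraries of the same number correlated at -0.031, -0.156 and 0.01 in their deviations from the group means, and those of unlike number at -0.198 to 0.215. So few pairs cannot decide whether the samples are paired. PTH 4 has no PBS library of its number, so with a replicate block it adds nothing to the change. The changes with the block are then those without PTH 4, such as -1.90 for Fga in both, and the fit keeps 2 residual degrees of freedom. With a replicate block the fit called 1558 genes higher and 177 lower, 0 members higher (4 at an unadjusted p of at most 0.05) and 9 lower, without F11 (adjusted p = 0.065) and Plg (adjusted p = 0.0608), and 2 other pathway genes higher. The members higher came to 2, F3 and Thbd, without trend and robust and again with the scaled counts. They came to 3 at an adjusted p of 0.1, where all genes lower came to 464. With the scaled counts 13 members were lower, with Hrg and Kng1 added, and the fit called 3740 genes higher and 311 lower of 11932. Without the 50 most abundant genes, of which 5 are members, the other 28 took 0.977% of the rest in PTH livers and 2.04% in PBS livers. With the genes of shared loci left out, 11 members were lower and 1 higher of 29.

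None of the genes called on the deposited scale changed direction under an alternative. The log2 changes that did, all of genes that did not pass, were those of F12 (-0.31 on the common-median scale, -0.13 after quantile normalization), F5 (-0.25 and -0.03), Vwf (-0.28 and -0.20), F13b (-0.42 and -0.30) and Tfpi (-0.012 on the common-median scale). Proc came to -0.078 after quantile normalization and between -0.62 without PBS 1 and 2.20 without PBS 3 when 1 library was left out, with -0.50 without PBS 2. It came to -0.34 without PTH 4 and, as the same estimate, with the replicate block. With 1 library left out, F13a1 ran from -0.83 to 0.69, its one value above 0 without PBS 1, and Plaur from -0.14, without PBS 2, to 1.21. The causes were not tested. F3, Plau, Plat, Plaur, F13a1 and Proc had at most 4 estimated reads in their lowest library. This did not follow depth in Proc, with 0.2 in the deepest PBS library and 90.4 in the shallowest, and F13a1 had 99 in PBS 1.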
